A study of Mus musculus with 4 samples.

Results

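The comparison described here set HT22 cells carrying a lentivirus aimed at Neat1 against HT22 cells carrying a control negative lentivirus, both deprived of oxygen and glucose (OGD). HT22 is an immortalised mouse hippocampal neuronal line, labelled as strain C57BL/6. Each group held 1 library, so the comparison used 2 of the 4 libraries of the series; the other 2 carried the same lentiviruses in normal culture (DMEM/F12 medium with 10% serum). The sources used here do not state the duration of OGD, the sequence and kind of the Neat1 construct or how many cultures went into a library. Every gene was given the value log2((knockdown + 10)/(control + 10)) of the deposited scaled counts, and kept if the larger count was at least 20. This left 13252 genes of the 20089 with a read in any library. Genes at least 2-fold higher here and at least 2-fold lower by the same formula in normal culture were set apart, 584 in all, and the remaining 12668 are described first. With 1 library a group no test between cultures was possible, and every interval covers the counting of reads alone.

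Neat1 is a long nuclear noncoding RNA that forms the scaffold of paraspeckles, nuclear bodies that hold RNA-binding proteins such as SFPQ, NONO and PSPC1 and that grow in many forms of cell stress. OGD is a culture model of ischaemia. Loss of glucose and oxygen impairs protein folding and glycosylation in the endoplasmic reticulum (ER), which activates the unfolded protein response through the sensors IRE1, PERK and ATF6. IRE1 splices Xbp1 mRNA, PERK raises translation of ATF4, and both lead to transcription of chaperones, of the ER-associated degradation machinery (ERAD) and of genes for amino acid supply. Immediate early genes such as Fos, Junb and Egr1 are transcribed within minutes of a stimulus and their mRNAs are short-lived.

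Of the 13252 genes, 1304 (9.84%) were at least 2-fold higher and 570 (4.30%) at least 2-fold lower in the knockdown library. Among the remaining 12668 genes 720 (5.68%) were higher and 570 (4.50%) lower. The median value of all genes was -0.0147 and the SD of the values across genes was 0.731. The count differed by level: of the remaining genes with a mean scaled count of 316 or more, 46 of 7126 were higher and 130 lower, whereas below that level 674 of 5542 were higher and 440 lower. Of the 720 higher genes 399 stood under 20 in the control library, and 95 stood at 100 or more there. The libraries held 17232866 reads (control) and 19066951 reads (knockdown) assigned to genes, and 18596774 and 20764430 in normal culture. Scaling by total counts in place of the authors' size factors moved the median of all genes by 0.197 and the share of higher genes among those past 2-fold from 69.6% to 81.5%. The authors' deposited table holds 23 genes with an adjusted p under 0.05 for this pair, 8 higher and 15 lower, and 372 with an unadjusted p under 0.05. The labelled cell type was checked against neuron markers: in the control library Eno2 stood at a scaled count of 1762, Dlg4 at 1398, Tubb3 at 937, Map2 at 119, Camk2a at 72.3, Rbfox3 at 11.3 and Nefm at 9.03, beside 28093 for the collagen gene Col1a1 and 36753 for the smooth muscle actin gene Acta2.

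**Figure D1:**
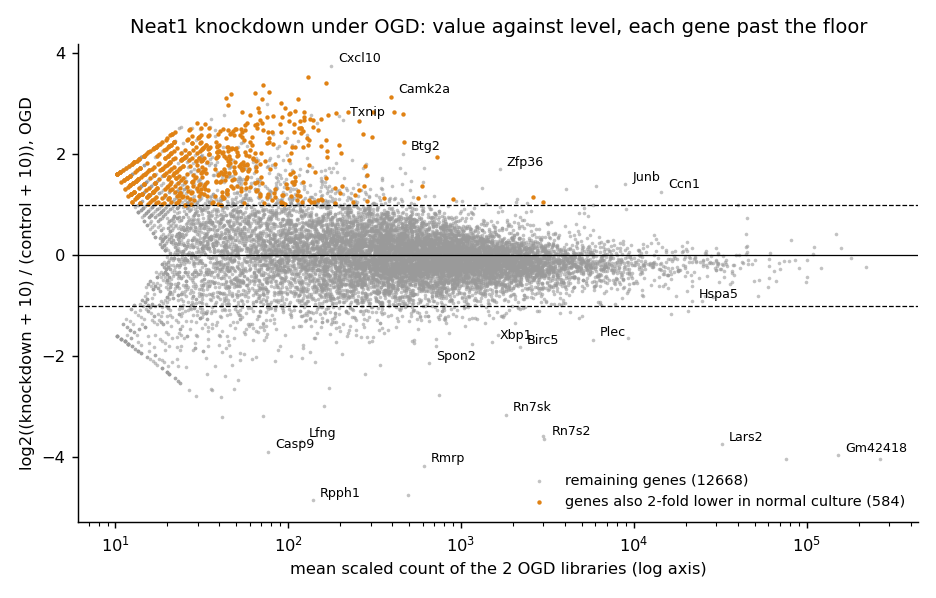
Value of each gene (log2, knockdown against control under OGD) against the mean scaled count of both libraries on a log axis; grey points are the 12668 remaining genes, orange points the 584 genes also 2-fold lower in normal culture, and dashed lines mark 2-fold. The spread narrows with level, and the short and ribosomal RNAs (Rpph1, Rmrp, Rn7s2, Gm42418) lie below the other abundant genes.

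Neat1 (ENSMUSG00000092274, chromosome 19, 5824708 to 5845478, minus strand, GRCm38, long intergenic noncoding RNA) had a scaled count of 1292 in control and 730 in knockdown cells under OGD. Its value was -0.82 (interval of the log2 read ratio -0.96 to -0.69), short of 2-fold. In normal culture, scaled within that pair, it stood at 3968 and 2475, a value of -0.68. In CPM (reads scaled to the assigned reads of the library) Neat1 stood at 204 and 125 in normal culture and at 66.4 and 43.2 under OGD. The label of the knockdown library and the direction of Neat1 therefore go together in each culture, by less than 2-fold. Malat1, the neighbouring nuclear noncoding RNA, stood at 1312 and 1200 under OGD, a value of -0.13 that turned positive with total counts. Of 20 paraspeckle protein genes 1 was past 2-fold, Fam98a, at 398 in control and 180 in knockdown cells (-1.10), and none was higher by 2-fold. The list median was -0.11 (0.09 with total counts). Pspc1, a core paraspeckle protein gene, stood at 219 and 328 (0.56) and Tardbp, which encodes the RNA-binding protein TDP-43, at 2218 and 1589 (-0.48).

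Most genes of the unfolded protein response lists had values below 0, and few of them passed 2-fold. Of 24 XBP1 target and ERAD genes 23 had values below 0, 3 were at least 2-fold lower and none higher, with a median of -0.41 (-0.21 with total counts, where 17 of 24 were below 0 and 2 were 2-fold lower). Xbp1 (chromosome 11, 5520659 to 5525893), the transcription factor spliced by IRE1, stood at 2334 in control and 700 in knockdown cells. Its value was -1.72 (-1.86 to -1.62), the lowest of the list. Syvn1, the ERAD ubiquitin ligase also called HRD1, stood at 1687 and 711 (-1.24), and Herpud1, which organises the ERAD complex, at 5851 and 2664 (-1.13). Hyou1, an ER chaperone of the HSP70 family, stood at 2638 and 1444 (-0.86), and Dnajc3, an ER co-chaperone, at 995 and 692 (-0.52). In the authors' deposited table Xbp1 has an adjusted p of 0.029. In normal culture Xbp1 had a value of -0.94, Syvn1 -0.28 and Herpud1 -0.54, and the list median was -0.17 with 2 of 24 lower by 2-fold.

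ER folding genes had the larger shift of the median, -0.60 over 16 genes (-0.39 with total counts), of which 13 were below 0. Only Creld2, a disulphide isomerase induced by ER stress, was past 2-fold, at 2500 in control and 1133 in knockdown cells (-1.14, -1.24 to -1.04). The most abundant member, the chaperone BiP gene Hspa5, stood at 28217 and 14995 (-0.91, -0.94 to -0.88). Manf, a secreted ER stress protein, stood at 5269 and 2738 (-0.94), Hsp90b1 (GRP94) at 8393 and 4423 (-0.92), Pdia6 at 5032 and 2737 (-0.88) and calreticulin (Calr) at 33017 and 18813 (-0.81). Hspa13, an HSP70-like protein of microsomes, had the highest value of the list, 0.68. In normal culture the values of Hspa5 (-0.12), Manf (-0.05) and Creld2 (0.24) lay nearer to 0, and that of Hsp90b1 was -0.71. The median of the folding list there was -0.25, also below 0, with none of 16 genes past 2-fold. Sensors and their processing enzymes were closer to 0 under OGD: over 9 genes the median was -0.29 and none passed 2-fold. Ern1 (IRE1) stood at 588 and 463 (-0.34), Eif2ak3 (PERK) at 110 and 123 (0.15) and Atf6 at 544 and 517 (-0.07). Genes at least 2-fold lower thus made up 12.5% of the XBP1 and ERAD list, 6.25% of the folding list and none of the sensor list, beside 4.30% of all genes tested. With total counts no folding gene was 2-fold lower: Creld2 stood at 128 and 67.1 CPM, and Herpud1 of the ERAD list at 301 and 158.

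The DNA before the start sites of 3 of these 4 genes is shown because it carries the element through which ATF6 and XBP1 are known to act, CCAAT and CCACG held apart by 9 bases, or a closely joined form of both parts. The sequences are RefSeq promoters on GRCm38.p6, the 250 bases before the annotated start, 5′ to 3′ on the gene's strand; capitals mark CCAAT and CCACG on either strand.
Herpud1, chr8:94386179-94386428, plus strand: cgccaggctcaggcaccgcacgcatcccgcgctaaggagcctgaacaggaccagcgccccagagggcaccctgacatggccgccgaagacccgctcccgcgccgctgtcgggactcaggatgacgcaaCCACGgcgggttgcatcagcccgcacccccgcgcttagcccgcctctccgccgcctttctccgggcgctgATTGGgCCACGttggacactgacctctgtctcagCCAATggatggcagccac
Creld2, chr15:88819396-88819645, plus strand: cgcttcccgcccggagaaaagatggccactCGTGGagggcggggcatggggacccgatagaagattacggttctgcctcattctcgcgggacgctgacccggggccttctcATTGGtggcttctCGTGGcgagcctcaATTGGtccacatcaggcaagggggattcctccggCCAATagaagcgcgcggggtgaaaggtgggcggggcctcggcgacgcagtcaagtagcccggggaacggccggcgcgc
Syvn1, chr19:6046326-6046575, plus strand: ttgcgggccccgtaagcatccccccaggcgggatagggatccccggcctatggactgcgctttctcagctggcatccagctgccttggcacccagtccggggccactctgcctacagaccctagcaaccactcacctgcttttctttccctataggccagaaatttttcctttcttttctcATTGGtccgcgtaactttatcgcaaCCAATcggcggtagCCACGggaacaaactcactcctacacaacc
The spaced form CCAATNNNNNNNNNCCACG, searched on both strands, was found before Creld2 and Syvn1, and before 8 of the 41 ER list genes with a promoter in the table (19.5%), against 0.126% of the 9540 genes past the floor with a promoter and 0.122% of all 27025. The 8 were Calr, Canx, Creld2, Dnajc3, Hsp90b1, Hspa5, Pdia6 and Syvn1. Herpud1 held the joined form ATTGGNCCACG, which 0.0524% of the genes past the floor held. Xbp1, the other of the 4 genes, held neither part in this window, and so neither form. These spaced and joined forms contain the single parts, and they were chosen after the promoters had been read. CCACG alone was found before 70.7% of the ER list genes and 42.9% of the genes past the floor, and CCAAT alone before 70.7% and 37.3%. The ER lists name known targets of this response, so a higher share among them describes the lists and not the knockdown. A match is a description of the letters in this window.

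Most genes for amino acid supply had values below 0 in the same comparison, and few passed 2-fold. Of 11 amino acid transporters 9 were below 0 and 2 (18.2%, beside 4.30% of all genes) at least 2-fold lower, with a median of -0.40. With total counts 7 were below 0, 1 was 2-fold lower and the median was -0.20, with Slc7a5 at 359 and 180 CPM. Slc7a1, which carries cationic amino acids, stood at 1970 in control and 773 in knockdown cells (-1.34), and Slc7a5, the large neutral amino acid transporter, at 6981 and 3034 (-1.20). In normal culture both were slightly higher with knockdown, with values of 0.59 and 0.25. Slc3a2, the partner chain of Slc7a5, stood at 19058 and 13712 (-0.47) and Slc6a9, a glycine transporter, at 1425 and 804 (-0.82). Of 20 cytosolic tRNA synthetase genes 16 were below 0 and 2 past 2-fold, tryptophanyl Wars at 1278 and 433 (-1.54) and cysteinyl Cars at 3875 and 1799 (-1.10). Their median was -0.32. With total counts it was -0.12, with 13 below 0 and 1 past 2-fold. Of 13 serine and one-carbon genes 12 were below 0 and none past 2-fold, with a median of -0.56 (-0.35 with total counts). Phgdh, the first enzyme of serine synthesis, stood at 14137 and 8149 (-0.79), and Asns, asparagine synthetase, at 8631 and 5254 (-0.71).

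Genes of the ATF4 and CHOP list, which holds transcription factors of that response and some of their targets, lay on both sides of 0. Of its 16 genes none passed 2-fold in either direction, 9 were below 0 and 7 above, and the median was -0.22. With total counts 1 was 2-fold higher, 8 were below 0 and the median was -0.02. Atf5 stood at 8479 in control and 4336 in knockdown cells (-0.97), Ddit3 (CHOP) at 4822 and 2664 (-0.85) and Sesn2, a stress-induced gene that is no transcription factor, at 1902 and 1086 (-0.80). Ddit3 overlaps Mars, and their reads may not be separable. Atf3, also an early response gene, went the other way, at 1170 and 2120 (0.85). In normal culture the median of this list was 0.55 with 3 genes 2-fold higher and none lower.

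**Figure D2:**
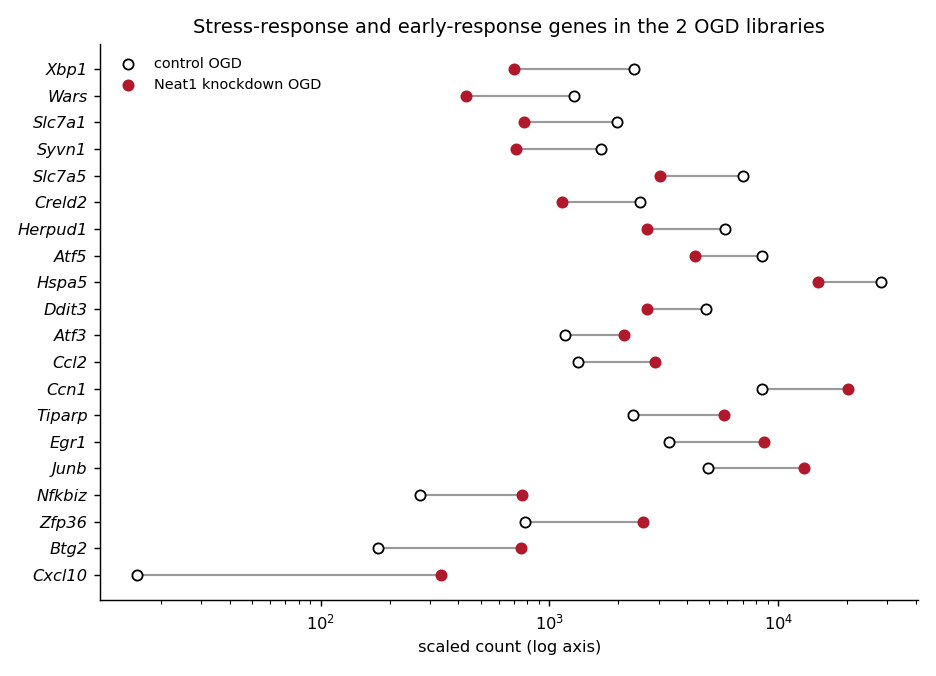
Scaled count of 20 stress-response and early-response genes (log axis) in the control OGD library (open circles) and the knockdown OGD library (filled circles), joined by a line per gene; 1 circle is 1 library. Genes from Xbp1 to Ddit3 stand lower in the knockdown library and those from Atf3 to Cxcl10 higher, from 2334 to 700 for Xbp1 and from 15.8 to 336 for Cxcl10.

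Some immediate early genes stood at least 2-fold higher with knockdown, among them abundant ones, while others of the same lists had values below 0. Of 10 AP-1 factor genes 3 were at least 2-fold higher, beside 9.84% of all genes, and none lower, with a median of 0.36. Without Fosb, one of the 584 genes set apart, 2 were higher and the median was 0.29. Junb, an AP-1 subunit, stood at 4917 in control and 12958 in knockdown cells (1.40, 1.35 to 1.45). Fos stood at 1345 and 2794 (1.05, 0.96 to 1.15) and Jun at 3714 and 6616 (0.83), while Jund, a constitutive subunit, stood at 7136 and 5434 (-0.39), Fosl1 at 1592 and 1251 (-0.35) and Mafg at 1982 and 1218 (-0.70). Fosb stood at 139 and 434 (1.58). In normal culture Junb had a value of 0.07, Fos 0.59 and Jun -0.94.

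Of 10 EGR, NR4A and neuronal activity genes 5 were at least 2-fold higher, with a median of 0.78. Of these 5, Egr2 and Egr3 stood under 20 in control cells and passed the floor only through the knockdown library, and Egr3 and Arc were set apart by a rule that used these values, so the count is a description. Egr1, a zinc-finger factor and early response gene, stood at 3338 and 8703 (1.38, 1.32 to 1.44). Egr2 stood at 18.1 and 142 (2.43), and Nr4a1, an orphan nuclear receptor gene, at 741 and 1887 (1.34). Arc (295 and 1159, 1.94) and Egr3 (16.9 and 73.5, 1.63) made up the part set apart, and without them 3 were higher and the median was 0.22. Nr4a2 and Nr4a3 stood under 40 in both libraries with values of -0.14 and 0.22. Nab2, which represses EGR factors, stood at 2553 and 1733 (-0.56). In normal culture this list went the other way. Its median there was -1.39, with 6 of 11 members past the floor 2-fold lower with knockdown and none higher.

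Among 18 IER, ZFP36 and BTG genes 3 (16.7%, beside 9.84% of all genes) were at least 2-fold higher and none lower, with 7 below 0 and a median of 0.25. With total counts 6 were higher. Zfp36, whose protein promotes decay of mRNAs with AU-rich elements, stood at 783 and 2560 (1.70, 1.59 to 1.83). Btg2, an antiproliferative gene and p53 target, stood at 178 and 750 (2.01), and Ier5 at 1566 and 3227 (1.04). Ier2 (0.84), Ier3 (0.93) and Zfp36l1 (0.88) lay just short of 2-fold. Of 15 feedback genes of the MAP kinase pathway 2 (4 with total counts) were higher, the phosphatase gene Dusp2 at 15.8 and 75.3 (1.72) and Spry2 at 143 and 368 (1.30), the latter set apart. Dusp1 stood at 1889 and 2727 (0.53) and Dusp5 at 460 and 880 (0.92), and the list median was 0.10. In the authors' deposited table Junb has an adjusted p of 0.00904, Egr1 of 0.0196 and Zfp36 of 0.0271. Neuron markers stood higher in the same library, at 241 CPM summed in control and 558 in knockdown cells, and their part in the values of the early response genes was not tested.

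Of 16 SRF and YAP targets 13 had values below 0. The 2 highest were secreted proteins. Ccn1, a secreted early response gene also known as Cyr61, stood at 8497 in control and 20247 in knockdown cells (1.25, 1.22 to 1.29), and Ccn2 at 718 and 1354 (0.91). The lowest values of abundant members were those of actin-binding and actin genes: Tagln stood at 1421 and 601 (-1.23), Acta2 at 36753 and 20754 (-0.82) and Flna at 13846 and 8572 (-0.69). Other YAP targets lay closer to 0, Amotl2 at 2361 and 1760 (-0.42) and Ankrd1 at 935 and 800 (-0.22), as did the tropomyosin gene Tpm1 at 19978 and 18857 (-0.08). Srf itself stood at 4059 and 4706 (0.21). The median of the list was -0.34 with 1 gene 2-fold higher and 1 lower. Tiparp, an ADP-ribosyltransferase gene induced by the aryl hydrocarbon receptor, stood at 2326 and 5822 (1.32), and Cyp1b1, a classic target of the same receptor, at 3852 and 7721 (1.00). Cyp1b1 was higher in normal culture too (1.24), where Tiparp had a value of 0.04.

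Cxcl10, a chemokine induced by interferon, had the highest value of all genes tested. It stood at 15.8 in control and 336 in knockdown cells (14 and 380 reads), a value of 3.75 and a 21.3-fold higher level without the added constant (interval of the log2 ratio 3.65 to 5.30). In normal culture it stood at 66.0 and 179 (1.31). Of 21 interferon-stimulated genes 4 (19.0%) were at least 2-fold higher and 1 (4.76%) lower, beside 9.84% and 4.30% of all genes, with a median of 0.20. Of the 4 higher ones, Cxcl10, Oasl2 and Ifih1 stood under 20 in control cells and passed the floor only through the knockdown library. Oasl2 stood at 12.4 and 89.4 (2.15), Ifih1, the RNA sensor MDA5, at 18.1 and 54.9 (1.21) and Parp14 at 21.5 and 59.3 (1.14). Ifit2 was the lower one, at 48.6 and 15.9 (-1.17). The transcription factor genes Stat2 and Irf9 had values of -0.48 and -0.74. Of 18 chemokine and NF-kB genes 3 were higher and none lower, with a median of 0.14: Nfkbiz at 271 and 762 (1.46), Ccl2 at 1327 and 2886 (1.12) and Vcam1, which passed the floor only through the knockdown library, at 6.78 and 46.0 (1.74). Nfkbia, the inhibitor induced by NF-kB, stood at 1490 and 2610 (0.80) and Cxcl1 at 259 and 141 (-0.83).

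The DNA before Cxcl10 is shown because that gene had the highest value. It holds the interferon response core GAAANNGAAA, in capitals, as do 2.41% of the genes past the floor with a promoter, and 6 of 27 genes of the interferon and chemokine lists (22.2%) on either strand. It is the RefSeq promoter on GRCm38.p6, the 250 bases before the start, 5′ to 3′ on the minus strand.
Cxcl10, chr5:92348890-92349139, minus strand: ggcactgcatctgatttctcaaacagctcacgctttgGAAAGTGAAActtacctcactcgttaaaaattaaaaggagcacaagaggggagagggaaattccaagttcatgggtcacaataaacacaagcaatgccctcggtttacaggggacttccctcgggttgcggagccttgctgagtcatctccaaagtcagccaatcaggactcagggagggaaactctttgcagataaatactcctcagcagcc
Of the other motifs searched, the amino acid response core TGATGCAAT was found before 4 of 47 genes of the amino acid and ATF4 lists (8.51%). It was found before 0.0943% of the genes past the floor. The 4 were Aars (-0.55), Pycr1 (-0.63), Fgf21 (0.27) and Nupr1 (0.04). Of the 4 genes of these lists that were 2-fold lower, 1 had a promoter, and it did not hold the core. The serum response core was CC, 6 bases of A or T, GG. Over the early response, feedback, SRF and YAP lists it stood before 5 of 56 genes (8.93%), beside 1.16% of the genes past the floor. The 5 were Dusp5, Myl9, Srf, Vcl and Zfp36. Of the 11 genes of these lists that were 2-fold higher and had a promoter, 1 held it, Zfp36. The lists searched for each motif name genes by known function, so these shares too describe the lists and not the knockdown.

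The highest values among remaining genes with 100 or more in the larger library belonged to genes that were low in control cells. Btg2, at 178 there, was the exception. Cxcl10, Egr2, Rian and Slc1a3 stood under 20 in control cells and passed the floor only through the knockdown library. Txnip, which encodes an inhibitor of thioredoxin and of glucose uptake, stood at 48.6 in control and 365 in knockdown cells (2.68), and at 1141 and 1246 in normal culture. Cd74, the MHC class II invariant chain, stood at 42.9 and 348 (2.76), the imprinted noncoding RNA Rian at 9.03 and 142 (2.99), the neuronal membrane glycoprotein gene Gpm6a at 27.1 and 245 (2.78) and the muscle intermediate filament gene Des at 33.9 and 259 (2.61). Slc1a3, the glial glutamate transporter, stood at 19.2 and 143 (2.39) and Clu, clusterin, at 35 and 223 (2.37). Kdm7a, a histone demethylase gene, Alg6 and Pigh, which act in glycan and GPI-anchor synthesis, and Selenop, selenoprotein P, had values between 2.13 and 2.26. Gpm6a and Slc1a3 are brain-type transcripts that the rule for the set of 584 did not take, since their values in normal culture were -0.58 and 0.10.

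Outside the short RNAs and the genes over ribosomal RNA repeats, described further on, the lowest values belonged to Casp9 and Lfng. Casp9 (chromosome 4, 141793612 to 141815976), the initiator caspase of the mitochondrial pathway, had 134 reads in control and 1 in knockdown cells (interval of the log2 ratio -12.73 to -4.91), and it was lower in normal culture too, at 253 and 97.4 (-1.29). Over 20 caspase and BCL2-family genes 1 was higher and 1 lower, so Casp9 was not accompanied by its list (median -0.17, and 0.04 with total counts). Birc2, an inhibitor of apoptosis, stood at 48.6 and 107 (1.00). Lfng (chromosome 5, 140607320 to 140615545), a glycosyltransferase that modifies Notch receptors, had 203 reads and 10 (-3.67), with 524 and 624 scaled counts in normal culture. Other Notch genes were mixed: Notch1 stood at 289 and 159 (-0.82), Notch3 at 208 and 433 (1.02) and the target gene Hes1 at 203 and 468 (1.16). Bahcc1 (-2.98), the sterol synthesis protein gene Erg28 (-2.62) and the secreted carbonic anhydrase gene Car6 (-2.34) had low values as well, all nearer to 0 in normal culture, between -0.41 and -0.35.

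Among abundant genes the lower ones included Birc5, or survivin, a mitotic inhibitor of apoptosis, at 3417 in control and 963 in knockdown cells (-1.82, -1.93 to -1.73). Other mitosis genes did not share this size: of 20, Birc5 alone passed 2-fold, Plk1 stood at -0.60 and Cenpe at 0.65, and the median was -0.14 (0.06 with total counts). Plec, the cytoskeletal linker plectin, stood at 8835 and 2765 (-1.67), and S100a4, a calcium-binding protein gene, at 6773 and 2834 (-1.25). Of 22 collagen and matrix genes 4 (18.2%) were lower and 2 (9.09%) higher, beside 4.30% and 9.84% of all genes; with total counts 3 were lower. Col6a1 stood at 2954 and 1153 (-1.35), Col6a2 at 393 and 146 (-1.37), Col6a3 at 87.0 and 23.9 (-1.52) and Col1a1 at 28093 and 13051 (-1.11). The 3 collagen VI chains were lower with knockdown in normal culture as well, between -2.18 and -1.10, and Col1a1 had a value of -0.42 there. The median of the list was -0.02, and 0.18 with total counts.

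Hypoxia and glycolysis genes, which mark the OGD itself, were close between the lentiviruses. None of 21 HIF target genes passed 2-fold and their median was 0.02. With total counts 1 was 2-fold higher, 14 were above 0 and the median was 0.23. Kdm3a stood at 1144 in control and 2216 in knockdown cells (0.95), Bhlhe40 at 4031 and 6883 (0.77) and Egln1 at 9113 and 6384 (-0.51). Of 19 glycolytic genes Pfkfb4 was lower, at 79.1 and 12.4 (-1.99), and Aldoc, the brain aldolase set apart with the 584, was higher, at 63.2 and 274 (1.95). The abundant Eno1 stood at 117561 and 81200 (-0.53), and the list median was -0.14 (0.06 with total counts). Of 18 heat shock genes only Hspa1a passed 2-fold (1942 and 4047, 1.06, set apart), next to its near-identical copy Hspa1b at 6254 and 11753 (0.91). Hmox1, haem oxygenase 1, stood at 26606 and 53047, just under 2-fold, and was also higher with knockdown in normal culture (1.47). Gsr, glutathione reductase, was the only NRF2 list member past 2-fold, at 713 and 282 (-1.31). Of 21 p53 targets Btg2 was higher and Aen (-1.10) and Phlda3 (-1.03) were lower. No DNA replication, ribosomal protein or mitochondrially encoded protein gene passed 2-fold, over 20, 35 and 13 genes with medians of -0.12, -0.14 and -0.26; with total counts the first and second medians were 0.08 and 0.07. Idi1, at 107 and 265 (1.23), was the only cholesterol synthesis gene of 19 past 2-fold. Of 254 genes named Zfp, a list chosen after values had been seen, 31 (12.2%) were higher and 12 (4.72%) lower, beside 9.84% and 4.30% of all genes (median 0.20).

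**Figure D3:**
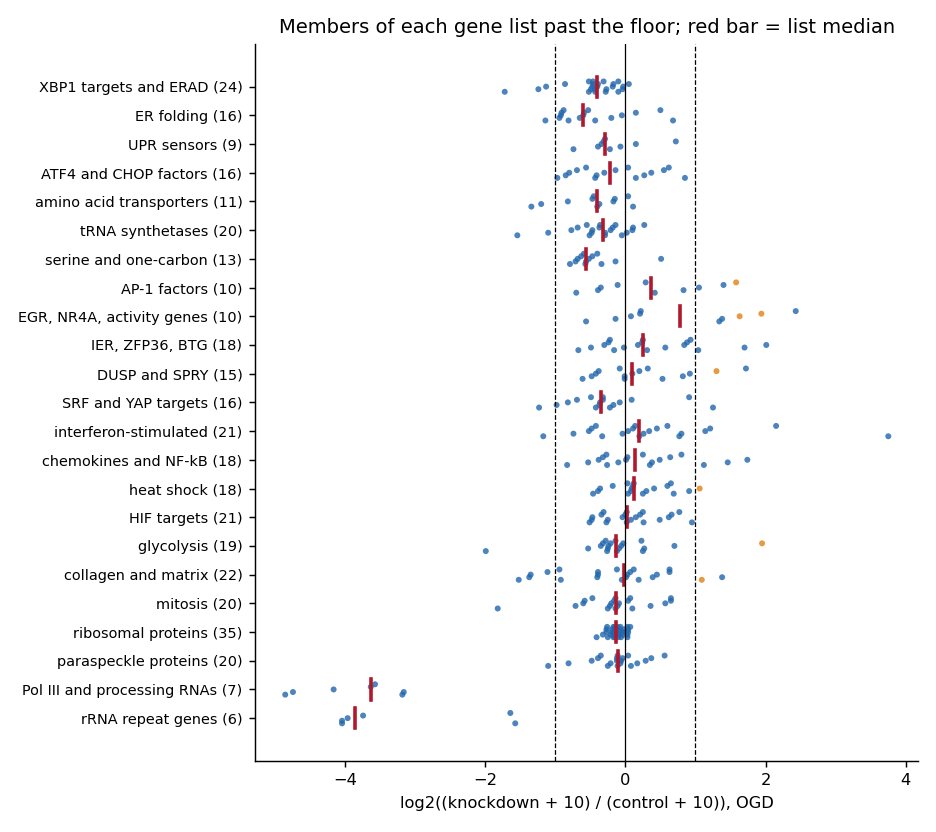
Values of the members of 23 gene lists past the floor (log2, knockdown against control under OGD), 1 point per gene, with the number of members in brackets and a red bar at the median; orange points belong to the 584 genes set apart and dashed lines mark 2-fold. The medians of the ER and amino acid lists lie left of 0 and those of the EGR and AP-1 lists right of it, and all members of the bottom pair of lists lie left of -1.

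The lists of short structured RNAs and of ribosomal RNA repeat genes had the lowest medians of all lists, -3.63 and -3.85. Rpph1, the RNA of RNase P (chromosome 14, 50807449 to 50807767, minus strand), had 246 reads in control and 0 in knockdown cells, at least 105-fold lower when 3 reads are set for the 0. Rprl3, a related copy, stood at 964 and 26.6 scaled counts (-4.74). Rmrp, the RNA of RNase MRP, stood at 1164 and 55.8 (-4.16, interval of the log2 ratio -4.77 to -4.02). The signal recognition particle RNA copies Rn7s2 and Rn7s1, which cannot be told apart by short reads, stood at 5629 and 445 (-3.63) and at 5538 and 457 (-3.57). Rn7sk, the RNA that holds P-TEFb inactive, stood at 3268 and 356 (-3.16). All 7 members of the short RNA list, transcribed by RNA polymerase III or acting in RNA processing, were more than 8-fold lower. All 7 small nuclear RNA genes past the floor were at least 2-fold lower, beside 4.30% of all genes. They stood at 21.5 to 40.7 in control cells and at 1.77 or less in knockdown cells. They thus passed the floor only through the control library, and the count is a description. Small nuclear RNA reads numbered 346 in the control and 11 in the knockdown library.

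Genes listed as lying over ribosomal RNA repeats went the same way. The 6 genes of that list took 5.17% of the reads of the control library and 0.399% of those of the knockdown library, against 1.96% and 4.71% in normal culture. Its members Lars2 and Gm26870 lie on chromosome 9, apart from those on chromosome 17, and whether they hold such a repeat was not tested. Gm26870 had the value nearest to 0, -1.57. AY036118 (chromosome 17, 39847113 to 39848035) stood at 143315 and 8721 (-4.04), and it overlaps CT010467.1 and Gm42418, so their reads may not be separable. Lars2, on the same list, stood at 59881 and 4466 (-3.74). The mitochondrial ribosomal RNAs differed less, with values of -1.17 for mt-Rnr2 and -0.65 for mt-Rnr1. In normal culture the same lists had the opposite sign, with medians of 1.26 for the 7 short RNAs and 1.29 for the repeat genes, against -3.63 and -3.85 under OGD. Of the 23 genes with an adjusted p under 0.05 in the authors' deposited table, 6 are short RNAs of the list above, among them Rn7s2 (2.2e-17), Rmrp (9.5e-09) and Rpph1 (0.000125). A further 5 of the 23 are ribosomal RNA repeat genes, among them AY036118 (3.5e-32) and Lars2 (1.35e-27), and these 2 classes thus hold most of the 15 lower genes. Most of the short RNAs lack a poly(A) tail, and the part of that in their values was not tested. Replication histone genes had a median of 0.08 over 19 genes, with 1 higher (Hist1h3a, 30.5 and 130) and 3 lower. The lower ones were the linker histone genes Hist1h1a, Hist1h1b and Hist1h1e. In normal culture 10 were higher and 2 lower.

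Some genes passed 2-fold in the same direction in both cultures. Of 12788 genes past both floors 112 were higher in both and 87 lower in both. Of the same genes 1087 were higher and 509 lower under OGD, and 518 were higher and 1457 lower in normal culture. Over all 14525 genes past the floor in normal culture, 6.18% were higher and 16.4% lower with knockdown. Spon2, an extracellular matrix protein gene, stood at 1074 in control and 236 in knockdown cells under OGD (-2.14) and at 2112 and 448 in normal culture (-2.21). Aqp1, the water channel gene, stood at 560 and 116 (-2.18) and at 545 and 129 (-2.0). Medag (-1.95 and -1.69), the mitochondrial ornithine carrier gene Slc25a15 (-2.02 and -1.50), Mob3c, Tlnrd1, Inafm1 and the heparan sulphate enzyme gene Ndst2 (-1.32 and -1.85) were lower in both. Tubb3, a neuronal tubulin gene, was lower in both as well, at 937 and 371 under OGD (-1.31) and -1.48 in normal culture. Higher in both were Cd74 (2.76 and 3.10), Des (2.61 and 1.82), the replication histone gene Hist1h3a (1.79 and 1.97), Plcxd2 (1.70 and 1.83), Acsbg1, a brain acyl-CoA synthetase gene (1.73 and 1.28), Hivep2, Clu, Unc13d and Ccdc28a. Among the remaining genes past both floors, 12204 genes, the values in both cultures had Pearson r = 0.076 and Spearman rho = 0.093 across genes, which are not independent replicates. With the 584 genes included r was -0.342, a sign that their rule fixes. A further 49 genes were lower under OGD and higher in normal culture, led by short RNAs and repeat genes (Rmrp, Lars2, AY036118, Rn7s2) along with Epb41l5 (-1.34 and 1.59) and Macrod2 (-1.29 and 2.05).

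**Figure D4:**
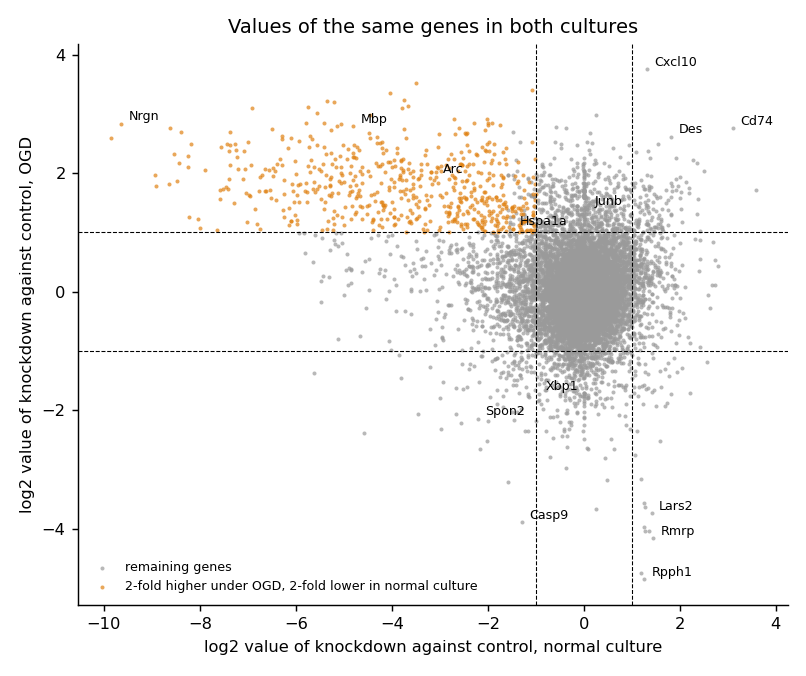
Value of each gene under OGD (vertical axis, log2) against its value in normal culture (horizontal axis, log2), 1 point per gene; orange points are the 584 genes 2-fold higher under OGD and 2-fold lower in normal culture, a region the rule draws, and dashed lines mark 2-fold. Cxcl10, Cd74 and Des lie at the upper right, Spon2 and Casp9 at the lower left, and Rmrp, Lars2 and Rpph1 at the lower right.

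The 584 genes set apart were chosen by their values in both cultures, so these values describe them and support nothing. Of them 555 are annotated as protein coding. Most were scarce under OGD: their median scaled count was 9.03 in control and 55.8 in knockdown cells, and 432 stood under 20 in control cells, so that they passed the floor only through the knockdown library. In normal culture the median was 209 in control and 3.82 in knockdown cells. Just inside the rule lay Zfp738, Gm4673 and Sobp, each with a value of 1.0027 under OGD, and just outside lay Mbd4 (0.9997), Zfp65 (0.9963) and Shank2 (0.9948). Their reads took 2.12% of the control library and 0.0584% of the knockdown library in normal culture, and 0.0791% and 0.375% under OGD. The order of the libraries was thus control normal highest, knockdown OGD next, and the other pair lower.

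Of the 21 neuron markers past the floor 16 were among the 584. The synaptic vesicle fusion protein gene Snap25 stood at 92.6 in control and 725 in knockdown cells under OGD (2.84) and at 290 and 64.9 in normal culture (-2.0). Camk2a, a synaptic kinase, stood at 72.3 and 716 (3.14), the vesicular glutamate transporter gene Slc17a7 at 49.7 and 282 (2.29), and Nrgn, neurogranin, at 47.4 and 398 (2.83), with 22485 and 18.1 in normal culture. Inhibitory neuron markers were in the set too, Gad1 at 11.3 and 73.5 (1.97) and Gad2 at 4.52 and 58.4 (2.24). Of the 5 markers outside the set, Map2 stood at 119 and 442 (1.81), Gria1 at 5.65 and 52.2 (1.99), Dlg4 at 1398 and 2270 (0.69) and Eno2 at 1762 and 2875 (0.70), while Tubb3 was 2-fold lower, at 937 and 371 (-1.31). The summed level of the neuron list was 2597 CPM in the control and 83.8 in the knockdown library of normal culture, and 241 and 558 under OGD.

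Some markers of other brain cells were in the set, 3 of the oligodendrocyte list, 3 of the astrocyte list, 1 of the microglia and blood list and none of the vascular list. The oligodendrocyte list had 4 of 6 members past the floor 2-fold higher, beside 9.84% of all genes. Among them the myelin genes Mbp stood at 110 in control and 818 in knockdown cells (2.79) and Mobp at 27.1 and 189 (2.43), and Pdgfra, outside the set, at 82.4 and 227 (1.36). Of 7 astrocyte markers 6 were higher, among them Slc1a2 at 93.7 and 515 (2.34) and Gfap, with no read in control cells and 34.5 scaled counts in knockdown cells. Of these 6, 3 were in the set by its rule, and 4 passed the floor only through the knockdown library. Gja1, which many cell types express, stood at 4042 and 3276 (-0.30). Of 5 microglia and blood markers 3 were higher: Cd74, which was higher in normal culture too and lies outside the set, and the globin genes Hba-a1 (2.26 and 29.2, in the set) and Hbb-bs (4.52 and 37.2, outside it), both of which passed the floor only through the knockdown library. The microglial genes Csf1r, at 168 and 159 (-0.07), and Tmem119, at 146 and 185 (0.33), were short of 2-fold. Over 4 vascular markers Pecam1 was higher (2.26 and 38.1), again through the knockdown library alone, and Pdgfrb stood at 573 and 317 (-0.83). In bulk RNA a change in the number of cells of a type and in the RNA per cell cannot be told apart. Brain-type transcripts differed between libraries labelled as the same cell line, and sample identity was not tested from the reads.

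Not every gene set apart is a brain-type transcript, and Hspa1a and Nr1d1 are examples. Brain-type transcripts such as Mbp, Snap25 and Camk2a are also among its most abundant members. The members with the highest levels in knockdown cells were Hspa1a, the circadian repressor gene Nr1d1 at 1612 and 3592 (1.15), the sodium pump subunit gene Atp1b1 at 560 and 1226 (1.12), Arc and Ypel3 at 326 and 860 (1.37), followed by Mbp, the kinesin gene Kif5a at 157 and 782 (2.25), Ndrg4, Snap25 and Camk2a. Only 13 of the 584 stood at 100 or more in all libraries. The early response genes Fosb, Egr3 and Arc and the feedback gene Spry2 are in this set by the rule. Junb, Egr1, Fos, Zfp36 and Btg2 fall outside its cut-off, with values in normal culture between -0.57 and 0.59. Of these, Egr1 (1.38 and -0.57) and Zfp36 (1.70 and -0.15) still had opposite signs in the 2 cultures. So had Jun (0.83 and -0.94) and Dusp1 (0.53 and -1.18), also outside. Junb, Fos and Btg2 had values above 0 in both. Whether the early response genes vary apart from the set was not tested.

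**Figure D5:**
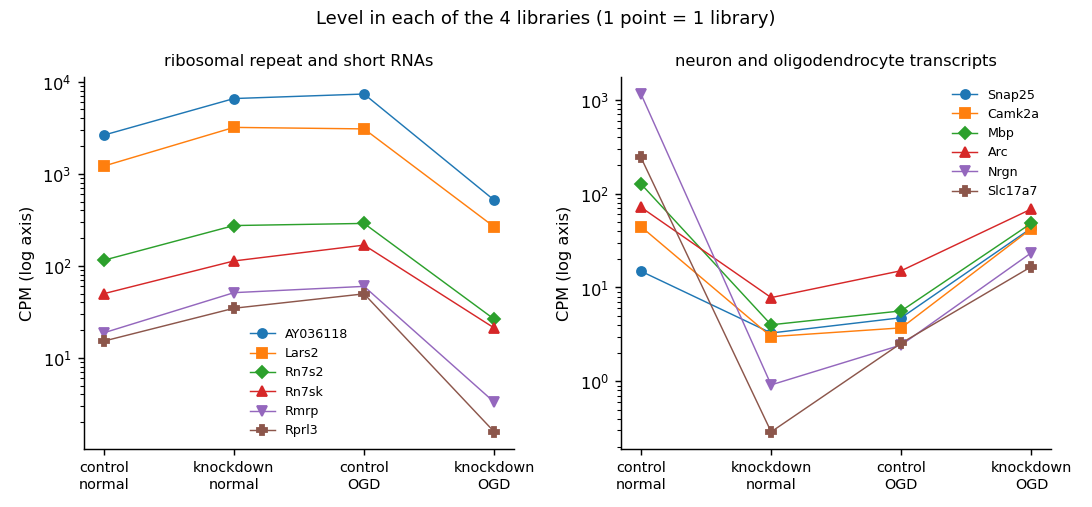
CPM (reads scaled to the assigned reads of each library, log axis) in the 4 libraries for ribosomal repeat and short RNAs (left) and neuron and oligodendrocyte transcripts (right); 1 point is 1 library and lines join the same gene without implying an order. The left genes are lowest in the knockdown OGD library, and the right genes are higher there than in the control OGD and knockdown normal libraries.

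Base composition and length moved with the values of the remaining protein-coding genes. The genes were ranked by transcript GC content (31.9% to 74.7%) and cut into 5 equal groups. The median value went from 0.12 in the group lowest in GC to -0.13 in the highest, the share 2-fold higher went from 7.35% to 3.68% and the share 2-fold lower from 3.01% to 5.89%. In normal culture the medians of the same groups went from 0.07 to -0.11. Over 5 groups cut by length the median went from -0.10 in the shortest to 0.03 in the longest. The part of either in the values of the gene lists was not tested.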

How the data were processed

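RNA sequencing of total RNA was analysed in 4 HT22 libraries, 1 per group, from the tables the authors deposited for pairs of libraries. Per the file headers these hold a scaled mean count per gene and library (a signal), p-values and adjusted p-values, and columns headed by sample number that were read as FPKM from the deposited values. The submitters' processing notes name TopHat2 and mm10, per the labels. Versions, counting program, annotation and use of strand were not given in the sources used here. Deposited scaled counts came out as whole reads after division by 1 factor per library for 100% of values (tolerance 1e-06), and both tables gave the same reads. Number of value columns without a sample: 0.

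Values are log2 ratios of scaled counts with 10 added, over genes with at least 20 in the larger column, so ratios of scarce genes are understated. The count threshold was 2-fold. Normal culture values come from the other deposited table, which was scaled separately. Intervals are exact conditional binomial, 95%, for the read ratio without the constant, so they need not centre on the value. Some named genes overlap a neighbour (Junb and Prdx2, Syvn1 and Mrpl49, Wars and Wdr25, Tagln and Pcsk7, Cxcl10 and Art3, Plec and Parp10), and their reads may not be separable. Reads without molecular identifiers are not independent molecules. A library with 0 reads was set to 3 reads for a bound.

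Of 20089 gene identifiers 19912 matched GENCODE mouse release M21 and 177 did not; 630 of 645 list symbols matched a gene. Named genes were, among remaining genes with 100 or more, the 14 highest and 14 lowest; in each list every member where 12 or fewer passed the floor and otherwise the 6 farthest from 0; Neat1 and Malat1; the 10 genes set apart that were most abundant with knockdown; up to 10 in each direction with 2000 or more; 10 in each direction past 2-fold in both cultures, and 6 reversed ones. Clone and predicted names were left out of the ranked choices. Further list members are named for context. Some genes that this rule takes are not reported here. The members, lists and motifs were chosen with earlier results of these data known, 1 of the 39 lists (Zfp) and the spaced and joined motifs after values or promoters had been seen. Promoters are RefSeq, GRCm38.p6, the most upstream start for each of 27025 genes.

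Alternatives were 1 or 50 added, a floor of 100 or none, total counts, TMM factors (edgeR 4.0.16, R 4.3.3) and FPKM with 1 added; counting without the genes set apart and the short RNAs, or at a mean of 316 or more, was added after seeing the data. The counting rule was tested on simulated data. Python 3.11.15, numpy 2.4.6, pandas 2.3.3, scipy 1.17.1 and matplotlib 3.10.9 were used.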

Additional observations from a re-analysis of the deposited data

Results flagged for a closer look

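With 1 library a group, the difference between the cultures in each result below was not tested. Knockdown and control libraries stood in opposite order in the 2 cultures for 584 genes, higher under OGD and lower in normal culture, and for 49 genes, lower under OGD and higher in normal culture. Neuron markers had a median of 2.06 under OGD and -4.77 in normal culture, in which 18 of 20 were 2-fold lower. Of the 21 past the floor under OGD, 16 were in the set of 584, which its rule drew from these values. Without them the median under OGD was 0.70. The short RNAs of polymerase III and RNA processing had a median of -3.63 under OGD and 1.26 in normal culture. Ribosomal RNA repeat genes had medians of -3.85 and 1.29.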

How the results depend on the processing

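No paired analysis was possible because each group holds 1 library, and for the same reason no library could be left out. Depth limits the low genes: with 50 added in place of 10 the counts fell from 1304 to 333 (higher), from 570 to 192 (lower), from 720 to 177 (higher among remaining genes) and from 584 to 156 (set apart), and with a floor of 100 they were 404, 284, 277 and 127. With FPKM in place of scaled counts 845 were higher, 224 lower and 250 set apart. Without the genes set apart and the short and ribosomal RNAs, an alternative added after seeing the data, 720 were higher, and at a mean scaled count of 316 or more, likewise added, 57 were higher and 130 lower. The cause of these shifts was not tested beyond what fewer genes counted gives by construction. List medians that took another sign with total counts and with FPKM were those of paraspeckle proteins (0.09 and 0.12), glycolysis (0.06 and 0.08), p53 targets (0.07 in each), caspases (0.04 and 0.12), NRF2 (0.10 and 0.16), mitosis (0.06 and 0.11), DNA replication (0.08 in each), collagen (0.18 and 0.12), snoRNA hosts (0.04 in each) and ribosomal proteins (0.07 and 0.09). With FPKM the ATF4 and CHOP median was 0.09, with a floor of 100 the DUSP and SPRY median was -0.01 and the vascular median -0.83, and with no floor the Notch median was 0.02. Of 127 named genes past 2-fold none changed sign under any of these settings. With 1 added and with TMM 127 stayed past 2-fold, 120 with total counts, 99 with 50 added and 97 with FPKM. With a floor of 100 all 106 that kept a value did. Part of this was fixed in advance. Another constant cannot change a sign, 1 added can only enlarge a value, and a floor leaves values as they are. TMM moved the median of all genes by only 0.00273, and some named genes were chosen for values far from 0.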
